A study of Mus musculus with 8 samples.

Results

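The genes described here are 10 RNA-binding, poly(A)-binding and polyadenylation genes of delayed translation in male germ cells: Ybx2, Ybx3, Pabpc1, Pabpc2, Paip2, Papolb, Eif4g3, Tarbp2, Dazl and Boll. They were taken by symbol, with no filter on their values, from the 56748 Ensembl gene identifiers of a table of raw read counts. The list itself was chosen with earlier results of these data known. All 10 were found, each with a single identifier, and all 10 passed the filter on low counts that left 21805 genes. RNA sequencing was done on adult mouse testis in 8 libraries, 4 with the genotype Ak9-/- (labelled knockout) and 4 with the genotype WT (wild type). The labels name no strain, no age beyond adult and no treatment, do not describe the Ak9 allele, and do not say whether each library came from a separate animal. P-values therefore reflect library-to-library spread, which may be technical. Both groups share tissue and protocol. Levels are given as CPM, the count of a gene for every 1000000 counts of its library after TMM scaling, which adjusts library totals for differences in library make-up, and the place of a library among the others is given on that scale unless stated.

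Spermatids compact their DNA with protamines and stop transcription while the sperm tail and head are still being built. Many mRNAs are therefore made early, packed into silent ribonucleoprotein particles with long poly(A) tails, and translated days later. Y-box proteins coat the stored mRNA, poly(A)-binding proteins and their partners set whether it is translated, a testis poly(A) polymerase lengthens tails in the cytoplasm, and proteins of the DAZ family act on mRNA translation in earlier germ cells.

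The promoter sequences of 2 genes are shown because Papolb and Dazl had the lowest and the highest level, relative to the wild-type mean, that any of the 10 genes reached in labelled knockout 3. RefSeq tables (GRCm38.p6) held a promoter for 7 of the 10 genes, 4 of them with a single start site. The 250 bases before the start site are given 5′ to 3′ on the strand of the gene, with the CCAAT core of the Y box and the TGACG core of the cAMP response element in capitals, on either strand (ATTGG and CGTCA are the same motifs read from the other strand).
Papolb, chr5:142530077-142530326, minus strand: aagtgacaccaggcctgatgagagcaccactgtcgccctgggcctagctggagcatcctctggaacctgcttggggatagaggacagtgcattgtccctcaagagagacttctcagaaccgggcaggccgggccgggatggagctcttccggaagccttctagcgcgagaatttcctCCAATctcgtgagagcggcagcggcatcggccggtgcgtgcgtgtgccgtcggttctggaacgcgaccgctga
Dazl, chr17:50293621-50293870, minus strand: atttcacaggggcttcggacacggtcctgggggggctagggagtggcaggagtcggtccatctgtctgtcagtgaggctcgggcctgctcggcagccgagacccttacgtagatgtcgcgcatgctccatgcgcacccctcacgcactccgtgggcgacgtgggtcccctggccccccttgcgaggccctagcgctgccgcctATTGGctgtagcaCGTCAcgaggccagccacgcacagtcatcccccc
The Papolb window held 1 CCAAT and 0 TGACG, and the Dazl window held 1 of each. Of 32851 promoter windows of the same length, 33.8% held CCAAT and 17.8% held TGACG. Neither window held GGGCGG or TATAAA, which were present in 32.7% and 12.4% of windows. The GC content was 62.0% for Papolb and 67.2% for Dazl, against a median of 52.4%. The motif matches describe these letters and were not tested as binding sites.

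None of the 10 genes differed past the threshold between labelled knockout and wild type. The log2 fold changes ran from -0.10 for Dazl to 0.15 for Pabpc2, with standard errors (SE) of 0.11 to 0.18. In edgeR's quasi-likelihood test 0 of 10 passed an adjusted p of 0.05, where 0.0183% of all 21805 genes did (4 genes). Of the 10, 0 had an unadjusted edgeR p under 0.05 (the range was 0.360 to 0.924), where 662 of all 21805 genes did. DESeq2 and limma-voom also called 0 of 10. The groups overlapped for all 10 genes, that is, 0 of 10 were without overlap, where 2.30% of all tested genes were. Of the 10 log2 fold changes 9 were above 0, with a median of 0.08, while 52.9% of all tested genes were above 0 with a median of 0.01. That tally rests on single libraries and on the scaling. Without labelled knockout 4, 6 of 10 were above 0 with a median of 0.012, and without labelled knockout 1, 8 of 10 with a median of 0.031. Without labelled knockout 3, 9 of 10 were above 0 with a median of 0.118. Of all genes tested without that library, 48.2% were above 0, with a median of -0.012. With library totals in place of TMM factors, 7 of 10 were above 0 with a median of 0.035, where 42.4% of all tested genes were above 0 with a median of -0.02.

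**Figure D1:**
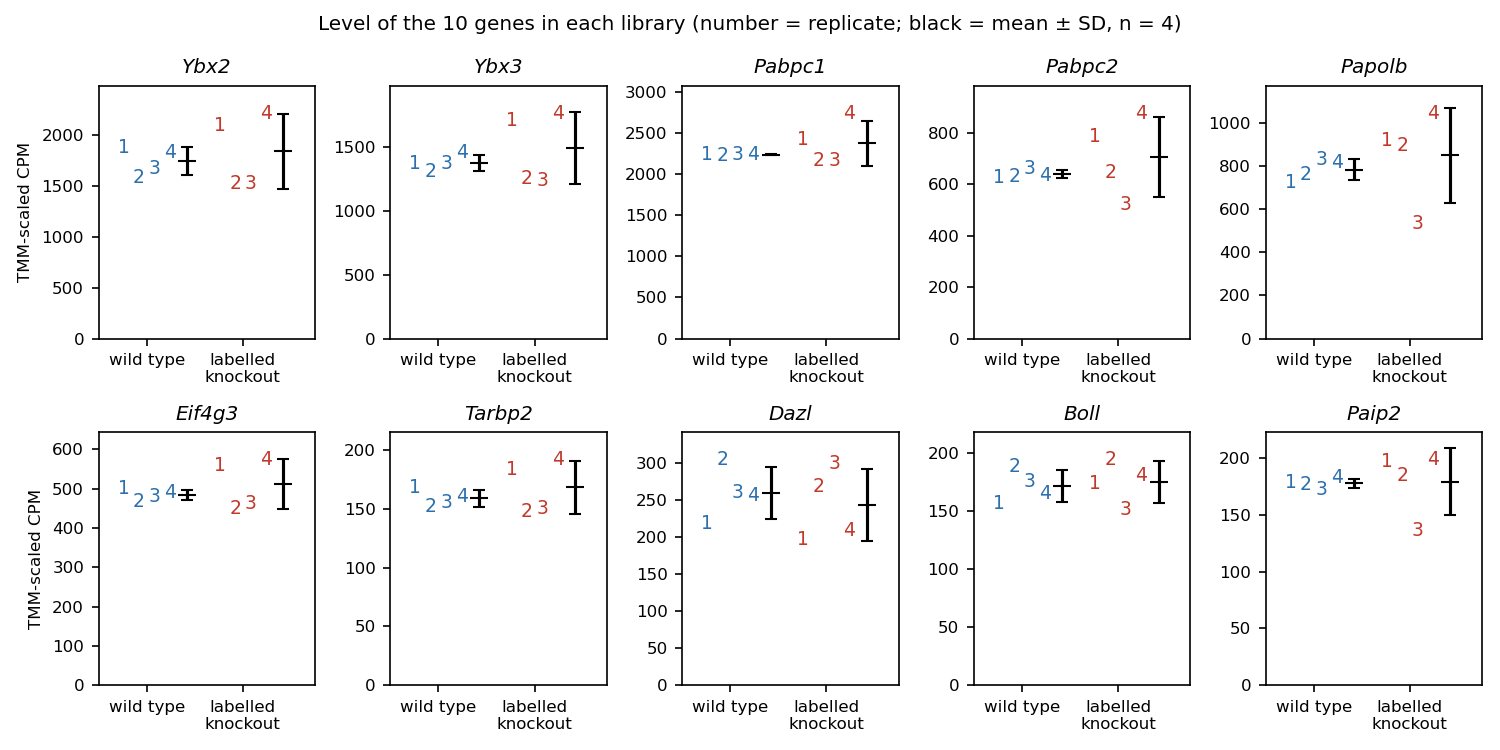
Level of each of the 10 genes (TMM-scaled CPM, linear axis from 0) in every library; digits mark the replicate number, blue for wild type and red for labelled knockout, and the black mark is the mean ± SD of 4 libraries. Labelled knockouts 1 and 4 stand above the wild types for 8 of the genes (6 when scaled by library totals alone). Labelled knockout 3 is the lowest library for 6 of the genes, where it is for 29.1% of all tested genes. These are Papolb, Pabpc2 and Paip2, lowest there by library totals too, and Ybx2, Ybx3 and Boll.

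Among the libraries as a whole, totals ran from 18062780 to 24415587 counts, and the 10 genes together held 0.770% to 0.901% of them. The Ak9 transcript had 69.3, 116, 101 and 40.6 CPM in the 4 labelled knockouts and 107 to 122 CPM in wild types, lying within the wild-type range in labelled knockout 2 (log2 fold change -0.47, SE 0.25, edgeR adjusted p = 1.00, and -0.24 to -0.69 when leaving out each library), and directions are given between labels. The labels do not say which part of Ak9 was targeted, and a gene total does not check that part. Markers of germ, Sertoli and Leydig cells were all counted in every library. Epididymis markers summed to 194 CPM in labelled knockout 3 and 36.6 in labelled knockout 4, and to 12.0 to 17.0 in the other 6 libraries, and 8 of these 11 genes had a count of 0 in at least 1 of the 8 libraries. Labelled knockout 3 stood apart from the others of its group (chi-square per gene of 43.7 to 70.4 against each, where other pairs of that group gave 13.3 to 21.8), and results are given with and without it.

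The Y-box proteins bind mRNA and hold it untranslated in spermatids. Ybx2 (ENSMUSG00000018554, chromosome 11), the germ-cell member known as MSY2, measured 2090.0, 1522, 1518 and 2211 CPM in the labelled knockouts 1 to 4, with the wild types 1 to 4 at 1874, 1577, 1671 and 1827 CPM. The labelled knockouts lay on both sides of the wild types, with 1 and 4 above all of them and 2 and 3 below all of them. For Ybx2 the log2 fold change was 0.08 (SE 0.16, 95% interval -0.31 to 0.47).

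Ybx3 (ENSMUSG00000030189, chromosome 6), known as MSY4, a Y-box protein of germ cells and some other tissues, measured 1706, 1251, 1238 and 1763 CPM in the labelled knockouts, with the wild types at 1365, 1304, 1365 and 1452 CPM. It had the same placing as Ybx2, with labelled knockouts 1 and 4 on top and 2 and 3 at the bottom. Its log2 fold change was 0.12 (SE 0.15, 95% interval -0.25 to 0.49). The ratio of Ybx2 to Ybx3 counts varied less among labelled knockouts, at 1.22, 1.22, 1.23 and 1.25, than among wild types, at 1.37, 1.21, 1.22 and 1.26. On the log2 scale the ratio was 0.04 lower in labelled knockouts (exact permutation p = 0.571).

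Poly(A)-binding proteins coat the mRNA tail and link it to the initiation machinery. Pabpc1 (ENSMUSG00000022283, chromosome 15), the general cytoplasmic form, measured 2429, 2171, 2172 and 2747 CPM in the labelled knockouts, with the wild types at 2243, 2231, 2240.1 and 2241 CPM. The wild types were almost level with each other (SD 5.18 CPM), a closeness that holds for TMM scaling, since by library totals alone they ran from 2236 to 2313 CPM. The labelled knockouts spread around them (SD 273 CPM), and the log2 fold change was 0.09 (SE 0.13, 95% interval -0.23 to 0.41).

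Pabpc2 (ENSMUSG00000051732, chromosome 18) is a testis poly(A)-binding protein encoded by an intronless copy of Pabpc1, with 1 exon in GENCODE M21. It measured 784, 645, 523 and 877 CPM in the labelled knockouts, with the wild types at 628, 630.1, 661 and 634 CPM. Labelled knockouts 1 and 4 were above all wild types, 2 lay among them and 3 was below all of them. For Pabpc2 the log2 fold change was 0.15 (SE 0.15, 95% interval -0.23 to 0.53), and it was 0.026 without labelled knockout 4 and 0.25 without labelled knockout 3. Pabpc2 and Pabpc1 transcripts are 80.3% identical over 2471 aligned bases, so reads that match both could be counted for either. Processed copies of Pabpc1 closer than that, Gm16580 (97.1% identical over 1052 bases) and Gm8276 (92.4% over 1863 bases), held at most 71 counts in a library.

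Paip2 (ENSMUSG00000037058, chromosome 18) encodes an inhibitor that displaces poly(A)-binding protein from the tail. It measured 198, 185, 136 and 199 CPM in the labelled knockouts, with the wild types at 179, 177, 173 and 183 CPM. Labelled knockouts 1, 2 and 4 were above every wild type by a small amount and labelled knockout 3 was below every one. The log2 fold change was 0.01 (SE 0.13, 95% interval -0.30 to 0.32), and 0.11 without labelled knockout 3 (edgeR adjusted p = 0.363).

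Papolb (ENSMUSG00000074817, chromosome 5), also called TPAP, is the testis poly(A) polymerase that extends tails in the cytoplasm of round spermatids. It is an intronless relative of the general polymerase gene Papola, with 1 exon. It measured 919.7, 896, 535 and 1046 CPM in the labelled knockouts, with the wild types at 726, 758, 832 and 814 CPM. Labelled knockouts 1, 2 and 4 were above every wild type, and labelled knockout 3 was the lowest of all 8 libraries. The log2 fold change was 0.12 (SE 0.18, 95% interval -0.33 to 0.57). Without labelled knockout 3 it was 0.27 (SE 0.08, unadjusted p = 0.00708, edgeR adjusted p = 0.133), and without labelled knockout 4 it was -0.00048 (edgeR adjusted p = 1.00).

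Eif4g3 (ENSMUSG00000028760, chromosome 4) encodes an eIF4G scaffold that joins the cap-binding protein to poly(A)-binding protein and is needed in male meiosis. It measured 558, 449.5, 463 and 574 CPM in the labelled knockouts, with the wild types at 499.5, 468, 479 and 489 CPM. As for the Y-box genes, labelled knockouts 1 and 4 stood above the wild types and 2 and 3 below. A log2 fold change of 0.08 was fitted (SE 0.12, 95% interval -0.21 to 0.36).

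Tarbp2 (ENSMUSG00000023051, chromosome 15) encodes a double-stranded RNA-binding protein, a partner of Dicer that is also needed for protamine mRNA translation. It measured 183, 148, 150.3 and 192 CPM in the labelled knockouts, with the wild types at 168, 152, 155 and 160.3 CPM. Its placing matched that of Eif4g3, with a log2 fold change of 0.08 (SE 0.11, 95% interval -0.19 to 0.36). A partial copy, Gm18584, is 99.3% identical over 603 bases and held 10 to 19 counts in a library, at most 0.492% of the Tarbp2 count.

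Dazl (ENSMUSG00000010592, chromosome 17) encodes a DAZ-family protein of germ cells before and early in meiosis that binds mRNA and promotes its translation. It measured 196, 268, 299 and 209.6 CPM in the labelled knockouts, with the wild types at 218, 305, 260.5 and 256 CPM. Dazl ran against the genes above: labelled knockouts 1 and 4 were below all wild types, and labelled knockouts 2 and 3 lay within their range. For Dazl the log2 fold change was -0.10 (SE 0.16, 95% interval -0.48 to 0.29).

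Boll (ENSMUSG00000025977, chromosome 1), the DAZ-family member of later meiosis and round spermatids, measured 174, 194, 151 and 181 CPM in the labelled knockouts, with the wild types at 156, 188, 175 and 165 CPM. Labelled knockouts 1 and 4 lay within the wild-type range, 2 was above it and 3 below it. For Boll the log2 fold change was 0.03 (SE 0.11, 95% interval -0.24 to 0.30).

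**Figure D2:**
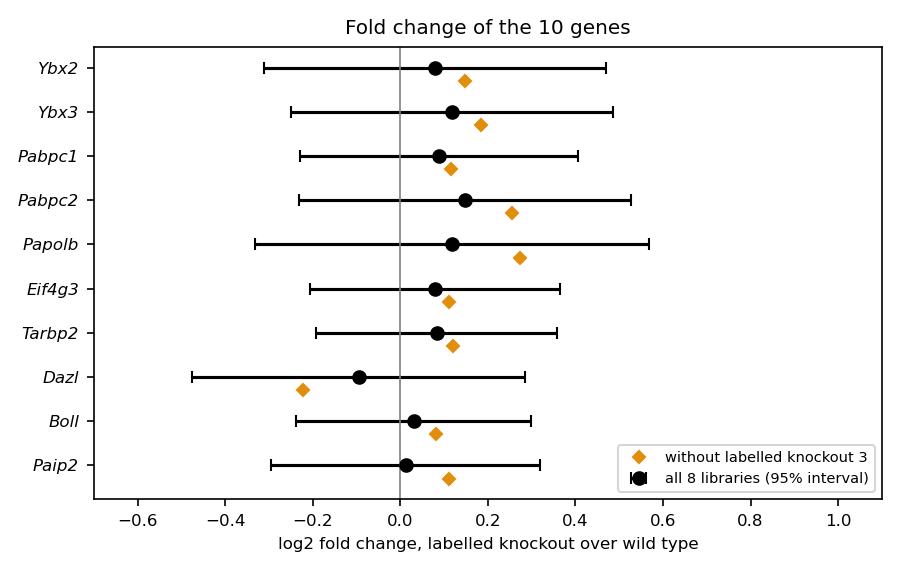
Log2 fold change of each of the 10 genes, labelled knockout over wild type (black, with the 95% interval, n = 4 per group), and without labelled knockout 3 (orange diamonds). All 10 intervals include 0; leaving out labelled knockout 3 moves Papolb from 0.12 to 0.27 and Dazl from -0.10 to -0.22.

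To set levels of different genes side by side, they were divided by exon length, joined over all annotated transcripts of a gene. Per kilobase of this length, Ybx2 was the most abundant of the 10 in wild types, at 922 ± 73.0 CPM per kb (SD, n = 4). Ybx3 followed at 446 ± 19.8, Pabpc1 at 342 ± 0.792, Pabpc2 at 247 ± 6.002 and Papolb at 185 ± 11.6 CPM per kb. Dazl was at 68.0 ± 9.33, Paip2 at 50.2 ± 1.20, Boll at 48.7 ± 3.89, Eif4g3 at 43.7 ± 1.23 and Tarbp2 at 34.9 ± 1.60 CPM per kb. The neighbours Paip2 and Boll, and Boll and Eif4g3, did not differ beyond their SDs. Relatives did not all lie on one side of the 10 genes on this scale. Papola was at 29.5 ± 1.47 CPM per kb, below Papolb, and Ybx1 was at 451 ± 18.1, below Ybx2 and within the SDs of Ybx3. Pabpc4 was at 3.09 ± 0.25 and the further testis copy Pabpc6 at 102 ± 2.72, both below Pabpc2, which was itself below Pabpc1. Eif4g1 at 61.6 ± 2.64 and Eif4g2 at 83.0 ± 4.12 were above Eif4g3. Exon lengths are those of GENCODE M21 and not of the counting annotation, which shifts these levels but no fold change. A joined length can exceed that of any single transcript, which lowers the level per kb of genes with many transcripts. GENCODE M21 lists 10 transcripts for Pabpc1 and 14 for Tarbp2, but 1 each for Pabpc2 and Papolb. The order of the genes can therefore depend on the length used, and other lengths were not tried.

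With TMM scaling, the SD of log2 CPM was larger in labelled knockouts than in wild types for 10 of 10 genes, with medians of 0.27 and 0.06. Across all tested genes 84.9% showed it, with medians of 0.30 and 0.13. With library totals it held for 9 of 10, with medians of 0.15 and 0.05, and for 86.3% of all tested genes. Boll turned (0.12 in labelled knockouts and 0.14 in wild types). Without labelled knockout 3 it held for 9 of 10 with TMM scaling, again without Boll, and for 68.6% of all tested genes. With library totals it then held for 8 of 10, without Papolb and Paip2, and for 70.5% of all tested genes. Labelled knockouts 1 and 4 were both above every wild type for 8 of the 10 genes (Ybx2, Ybx3, Pabpc1, Pabpc2, Papolb, Eif4g3, Tarbp2 and Paip2), and for 20.9% of all tested genes. With library totals in place of TMM factors this held for 6 of the 10, without Pabpc1 and Paip2, and for 9.66% of all tested genes.

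Labelled knockout 3 was below every wild type for 9 of the 10 genes, all but Dazl, and for 36.1% of all tested genes. Here the scaling matters. With library totals, labelled knockout 3 was below every wild type for Pabpc2, Papolb and Paip2, where 26.7% of all tested genes were. It was then above every wild type for Pabpc1, Eif4g3, Tarbp2 and Dazl, where 46.7% of all tested genes were. The low place of Papolb, Pabpc2 and Paip2 in this library therefore holds under both scalings, and that of Pabpc1, Eif4g3 and Tarbp2 turns. Labelled knockout 2 was above every wild type for Papolb, Boll and Paip2 and below for Ybx2, Ybx3, Pabpc1, Eif4g3 and Tarbp2. Of all tested genes, 26.3% were above and 26.4% below in that library. These libraries were singled out after their values were seen, and the counts are descriptions.

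Levels of cell type markers differed between the same libraries. Elongating spermatid markers (13 of 13 tested, among them the protamines) summed to 25560, 20705, 11594 and 27041 CPM in labelled knockouts 1 to 4 and to 17726 to 21808 CPM in wild types. Round spermatid markers (13 of 13 tested) summed to 3071, 2660.3, 1628 and 2962 CPM in labelled knockouts and to 2188 to 2515 in wild types. Spermatogonial markers (12 of 12 tested) ran the other way, at 218, 254, 308 and 200.3 CPM against 251 to 276 in wild types, and spermatocyte markers (12 of 12) were at 3094 to 3797 CPM against 3272 to 3565. Sertoli cell markers (12 of 12) summed to 1361, 1773, 2429 and 1281 CPM in labelled knockouts and to 1722 to 1919 in wild types. Leydig cell markers (0 of 11 with a fold change above 0, median -0.32, 0 called by edgeR) summed to 1829, 1739, 2183 and 1032 CPM in labelled knockouts and to 1987 to 2313 in wild types. Macrophage markers (2 of 9 above 0, median -0.22, 0 called) summed to 107 to 147 CPM against 131 to 151, endothelial markers (2 of 8 above 0, median -0.10) to 40.7 to 45.1 against 43.1 to 49.2, and peritubular myoid markers (7 of 9 above 0, median 0.23) to 371 to 447 against 360.2 to 404. No marker of these lists was at 0 in any library. In bulk tissue, fewer cells of a type and less RNA per cell cannot be told apart, and the part of these shifts in the values of the 10 genes was not tested.

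**Figure D3:**
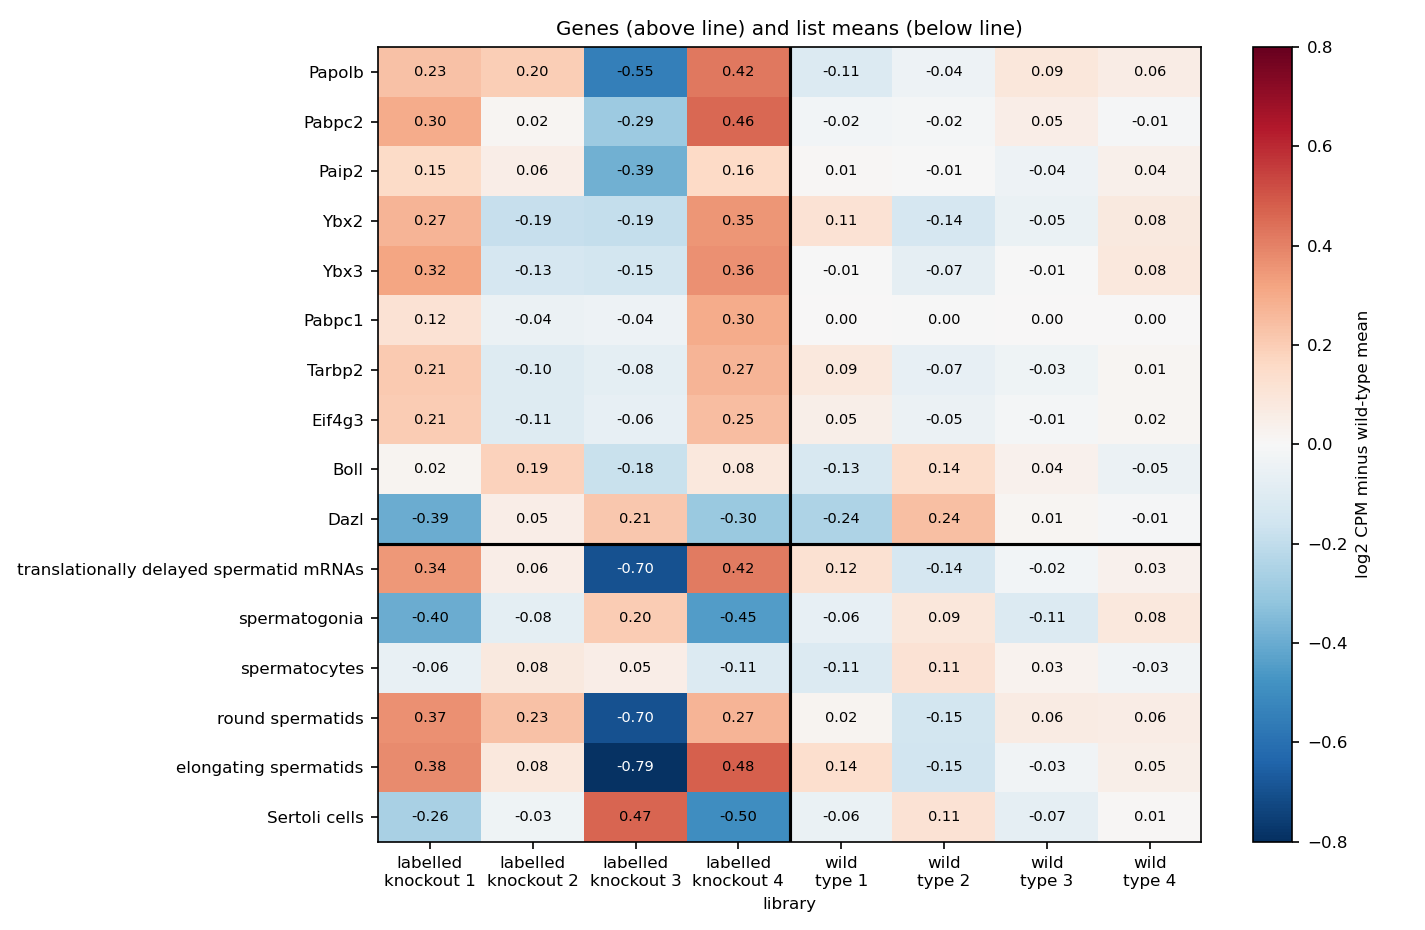
Log2 CPM minus the wild-type mean for the 10 genes (above the line) and the mean over lists of delayed spermatid mRNAs and cell type markers (below the line), in each of the 8 libraries; red is above and blue below the wild-type mean. In labelled knockout 3, Papolb is at -0.55 and elongating spermatid markers at -0.79, while Dazl is at 0.21 and spermatogonial markers at 0.20.

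The stored mRNAs themselves gave no difference past the threshold. Of 18 mRNAs known for delayed translation in spermatids, 0 were called (edgeR), 16 had a fold change above 0 and the median was 0.09. Their mean log2 level, relative to wild types, was 0.34, 0.06, -0.70 and 0.42 in labelled knockouts 1 to 4, lowest in the library where Papolb was lowest. Of these 18 genes, 9 are also among the elongating spermatid markers. Prm2, a protamine, was at 3761 ± 1321 CPM in labelled knockouts and 3344 ± 496 in wild types (SD, n = 4 each, log2 fold change 0.17, SE 0.25), a fold change that was 0.012 without labelled knockout 1 and 0.37 without labelled knockout 3. Acrbp, which binds proacrosin in the acrosome, was at 201 ± 38.2 against 189 ± 8.20 CPM (log2 fold change 0.09, SE 0.13).

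Ratios of paired genes within a library need no scaling between libraries, and 6 were compared. The ratio of Eif4g3 to its general relative Eif4g1 was 1.30, 1.11, 1.20 and 1.20 in the labelled knockouts, with wild types at 1.05, 1.09, 1.08 and 1.08. All 4 labelled knockouts were above all 4 wild types, by 0.16 on the log2 scale (two-sided exact permutation p = 0.0286, the smallest that 4 against 4 allows, and 0.171 adjusted over the 6 ratios). It did not pass after adjustment, and a single ratio at this smallest p could not pass over 6 ratios. Neither gene had a fold change past the threshold, with Eif4g1 at 425 ± 40.4 CPM in labelled knockouts and 449.6 ± 19.3 in wild types (SD, n = 4 each, log2 fold change -0.08, SE 0.11).

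The ratio of Papolb to Papola was 5.01, 4.55, 2.77 and 5.22 in labelled knockouts and 3.99, 3.70, 4.22 and 4.22 in wild types. Labelled knockouts 1, 2 and 4 were above and labelled knockout 3 below all wild types (difference of log2 means 0.08, exact permutation p = 0.771), and without labelled knockout 3 the difference was 0.29. Papola itself was level, at 194 ± 7.24 CPM in labelled knockouts and 194 ± 9.68 in wild types (SD, n = 4 each). The ratio of Pabpc2 to Pabpc1 was 0.323, 0.297, 0.241 and 0.319 in labelled knockouts and 0.280 to 0.295 in wild types (difference 0.04, exact permutation p = 0.8286), and the difference was 0.13 without labelled knockout 3. Again labelled knockout 3 was the lowest library.

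The ratio of Dazl to Boll was 1.13, 1.38, 1.98 and 1.16 in the labelled knockouts and 1.39, 1.62, 1.49 and 1.55 in wild types. Here labelled knockout 3 was the highest library and the other 3 were below all wild types (difference -0.13, exact permutation p = 0.457). The difference was -0.31 without labelled knockout 3 (exact permutation, 0.0857 adjusted over the 6 ratios, and 3 against 4 allows no p under 0.05) and -0.041 without labelled knockout 1. The ratio of Paip2 to Pabpc1 was lowest in labelled knockout 3, at 0.0627 against 0.0771 to 0.0816 in wild types (difference -0.09, exact permutation p = 0.514). Apart from Eif4g3 to Eif4g1, the adjusted exact permutation p with all 8 libraries was 0.8286 for each ratio.

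**Figure D4:**
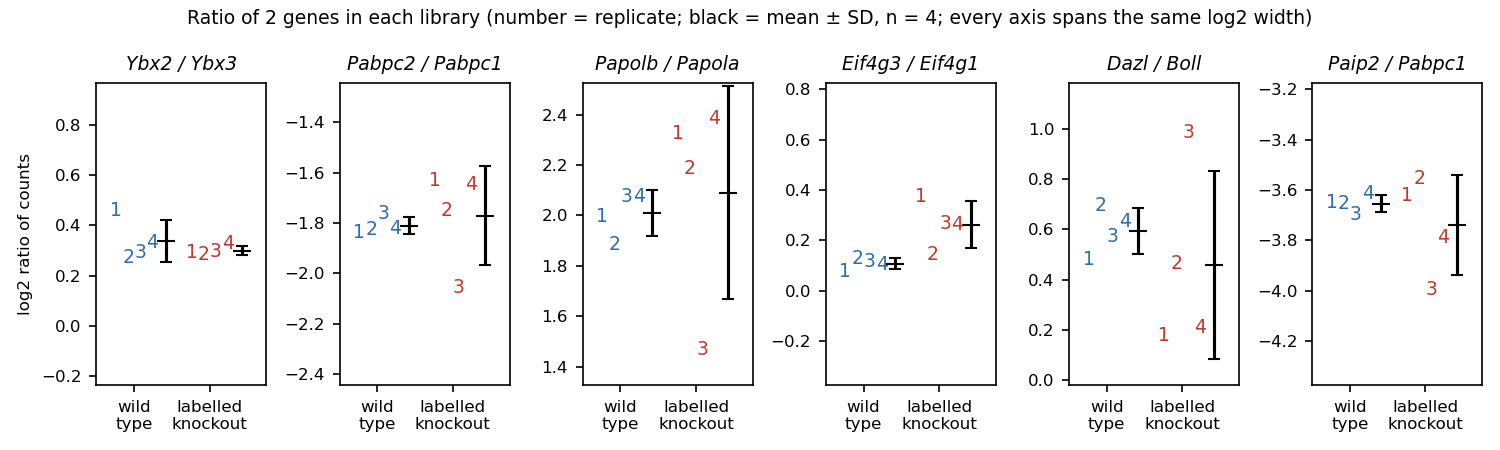
Log2 ratio of the counts of 2 genes in each library for the 6 ratios; digits mark the replicate, blue for wild type and red for labelled knockout, the black mark is the mean ± SD of 4 libraries, and all axes span the same log2 width. Eif4g3 to Eif4g1 is higher in all 4 labelled knockouts than in all wild types, while labelled knockout 3 is far from the other labelled knockouts for Papolb to Papola and for Dazl to Boll.

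The wider machinery around the 10 genes was examined through 5 further lists. None of their genes was called by edgeR. Among other proteins of mRNA storage particles, 17 of 22 had fold changes above 0, with a median of 0.07. Elavl1, an RNA-stabilising protein also called HuR, was at 90.8 ± 4.73 CPM in labelled knockouts and 81.2 ± 2.99 in wild types (SD, n = 4 each), higher in all 4 labelled knockouts than in every wild type (log2 fold change 0.16, SE 0.09, edgeR adjusted p = 1.00). It was the single gene of the lists without overlap between groups, where 2.30% of all tested genes had none. Khdrbs3, a splicing regulator of the STAR family, was at 77.6 ± 9.13 against 67.6 ± 3.55 CPM (log2 fold change 0.20, SE 0.10).

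Poly(A) tail and polyadenylation genes had 17 of 37 tested members above 0 and a median of -0.01. Nudt21, a subunit of the cleavage factor that selects polyadenylation sites, was at 104 ± 8.86 against 93.5 ± 4.11 CPM (SE 0.10 at a log2 fold change of 0.15), and Cpsf4, a cleavage and polyadenylation subunit, at 25.1 ± 3.20 against 27.6 ± 0.548 CPM (log2 fold change -0.14, SE 0.11). Cap-dependent initiation genes had 13 of 21 tested members above 0 and a median of 0.03. Eif4ebp1, which sequesters the cap-binding protein, was at 9.18 ± 0.721 against 10.8 ± 1.36 CPM, and the heme-regulated kinase gene Eif2ak1 at 51.3 ± 4.80 against 47.4 ± 2.20 CPM.

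Partners of Tarbp2 in small RNA processing had 9 of 12 members above 0 and a median of 0.02. Dgcr8, of the microprocessor, was at 32.5 ± 5.30 against 35.7 ± 2.37 CPM, and Adad1, a double-stranded RNA-binding protein of spermatids, at 309 ± 60.0 against 282 ± 7.63 CPM. Partners of Dazl and Boll were evenly divided, with 7 of 14 tested members above 0 and a median of 0.00. Tex19.1, a germ cell gene of transposon control, was at 13.8 ± 3.60 against 16.0 ± 1.42 CPM, and Nanos1 at 3.48 ± 0.366 against 3.99 ± 0.783 CPM. In all, 79 of 124 tested genes of the other lists, the stored mRNAs included, were above 0 and 45 below. Of these 124, 0 had an unadjusted edgeR p under 0.05, where 662 of all 21805 tested genes did.

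For the 3 genes with the widest range over the 8 libraries, the genes of most alike pattern were sought among 9645 named genes of at least 10 CPM, by the root mean square difference of centred log2 CPM over the 8 libraries. Papolb, with a range of 0.97 on the log2 scale, was most like Rnf139 (0.0318), Polk (0.0438) and Spata4 (0.0456). Rnf139, a ubiquitin ligase gene, was at 475, 459, 278 and 536 CPM in the labelled knockouts, with wild types at 395 to 445, so it was also lowest in labelled knockout 3. Pabpc2, with a range of 0.75, was most like Nudt4 (0.0280), Tmem202 (0.0350) and Tpgs2 (0.0380). Dazl, with a range of 0.63, was most like Relch (0.0340) and Hells (0.0384). Hells, an SNF2-type chromatin remodeller, had 43.2, 60.2, 69.2 and 48.3 CPM in the labelled knockouts, with wild types at 51.7 to 69.7, so, as for Dazl, labelled knockouts 1 and 4 were the lowest of all libraries. The search selected genes for such likeness in these same libraries, so the shared placing is a description and no separate result.

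Without labelled knockout 3, 0 of the 10 genes were called by edgeR, and the smallest adjusted p was 0.133, for Papolb. Papolb and Pabpc2 (log2 fold change 0.25, SE 0.10, edgeR adjusted p = 0.196) then had an unadjusted p under 0.05, which is 2 of 10 genes, where 19.0% of all 22131 genes tested without that library did.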

How the data were processed

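The labels describe TRIzol total RNA, DNase treatment and an Illumina TruSeq RNA kit. The authors deposited raw counts per Ensembl gene, whole numbers with no normalization. The submitters' processing notes name Trimmomatic, STAR, featureCounts and DESeq2 with GRCm39 and mm39; tool versions, annotation release, strandedness and how multiply matching reads were handled: not given in the sources used here. A count of 0 allows up to 0.123 to 0.166 CPM (3 counts, 95% limit, counting error only). There were 0 columns without a sample, and no library was a copy of another of its group (chi-square per gene of 4.52 or more). Pairs across the groups were not compared in this way.

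Of 56748 identifiers, 52073 had a symbol. filterByExpr (minimum count 10, minimum total 15) left 21805 genes, which were scaled by TMM and tested with edgeR's quasi-likelihood test across all genes without covariates (edgeR 4.0.16, limma 3.58.1, R 4.3.3), with Benjamini-Hochberg adjustment at 0.05. SE is |log2 fold change| divided by the root of F, and 95% intervals use 6 residual degrees of freedom. Ratios were compared by two-sided exact permutation (scipy 1.17.1). SDs of log2 CPM used a pseudocount of 0.5. Scripts were tested on simulated data. Copies were sought with blastn 2.17.0 in GENCODE M21 (GRCm38), in which 0 other genes shared exon bases with the 10; this annotation gives chromosomes, exon counts and lengths only.

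The 10 genes and the lists were chosen with earlier results of these data known. Genes named beside the 10 are Ak9, the 2 genes of smallest p in each list (none passed), the 3 most alike genes of the 3 members of widest range (1 of them is not reported here), and relatives used in ratios or levels per kb. Ybx1, Eif4g2, Pabpc4, Pabpc6 and the copies were added after their values were seen. The replicate number was not a block because no label says that it marks an animal, litter or batch. Same-numbered libraries had r from -0.03 to 0.09, where pairs of unlike number had r from -0.15 to 0.23. Alternatives were the replicate block, RLE factors, no filter, a minimum mean of 1 CPM, limma-voom (also with sample weights), DESeq2 1.42.0, leaving out each library, and for ratios 0.5 added counts; library totals without TMM were added after the data were examined.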

Additional observations from a re-analysis of the deposited data

Results flagged for a closer look

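Pabpc2 was at 661 CPM in wild type 3, while the other 3 wild types lay between 628 and 634 CPM. The gap took up 0.834 of the range of the group, past Dixon's 95% critical value for 4 samples. Of 32 groups of 4 values examined (10 genes and 6 ratios in each group of libraries), this was the single one to do so. Chance flags about 1 in 20 groups. By library totals alone the wild types 1 to 4 were at 626, 653, 670 and 635 CPM for Pabpc2, without such a gap.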

How the results depend on the processing

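None of the 10 genes was called under any of the 16 alternatives run, and their smallest adjusted p was 0.133 (Papolb without labelled knockout 3). The number of genes called over the whole table was 4 by edgeR, 26 with no filter, 47 by DESeq2, 14 by limma-voom with sample weights and 3 to 35 when leaving out each library (33, 35 and 33 without labelled knockout 1, 3 and 4). With the replicate block it was also 4, of which 3 were among the 4 called without it; the block called 0 of the 10 genes, and Paip2 was then at -0.0035. The sign of Paip2 also turned with no filter (-0.00048), limma-voom (-0.0038) and library totals (-0.040), and that of Boll with library totals (-0.014). Leaving out each library gave ranges that crossed 0: Paip2 -0.044 to 0.11, Boll -0.038 to 0.082, Ybx2 -0.023 to 0.15, Papolb -0.00048 to 0.27 and Acrbp -0.011 to 0.15. Others kept their sign but moved by over 1.5 times: Pabpc2 0.026 to 0.25, Ybx3 0.027 to 0.18, Pabpc1 0.012 to 0.12, Eif4g3 0.018 to 0.12 and Tarbp2 0.013 to 0.13, each lowest without labelled knockout 4; Dazl -0.22 (without labelled knockout 3) to -0.0076 (without wild type 2); Prm2 0.012 to 0.37; and Ak9 -0.69 (without labelled knockout 2) to -0.24 (without labelled knockout 4). Dazl to Boll ranged from -0.31 to -0.041. For the other ratios that crossed 0 these ranges were -0.0072 to 0.13 for Pabpc2 to Pabpc1, -0.15 to 0.00032 for Paip2 to Pabpc1, -0.016 to 0.29 for Papolb to Papola and -0.061 to 0.00015 for Ybx2 to Ybx3. No ratio passed after adjustment in any setting. With 4 against 4, a single ratio at the smallest p could not pass over 6 ratios. Leaving out a library allows no p under 0.05 with 3 against 4, nor does the paired test of 4 differences. The cause of these changes was not tested. The number of libraries and the spread of the labelled knockouts, more than counting error, limit these values: every one of the 10 genes had at least 2760.0 counts in each library.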
